A study of Mus musculus with 5 samples.

Results

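The 9 chemokine receptor genes of mouse marrow cells are described here across cell classes and days, by a rule that lists their names and sets no threshold on a measured value. They are Cxcr4, Cxcr2, Cxcr3, Cxcr5, Ccr1, Ccr2, Ccr7, Ccr9 and Cx3cr1, which make 9 of the 28692 genes in the count matrices, and all 9 were detected. Marrow came from 5 C57BL/6J mice, 8 weeks old and not irradiated, each of which had received 1000 BCR-ABL1+ pre-B acute lymphoblastic leukemia (ALL) cells through the tail vein. The day 0 mouse was killed straight after the injection, and the other 4 mice were killed at day 3, day 6, day 9 and day 12, with 1 mouse and 1 droplet-based 3' RNA library for each day. No group of mice without leukemia cells was analysed, so the day 0 mouse carries the injected cells too. Flushed marrow was pooled with cells freed from crushed bone by a warm collagenase and DNase digestion, and red cells were lysed. The cells were then frozen in serum with dimethyl sulfoxide and shipped before the libraries were made.

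Chemokine receptors are G protein-coupled receptors that turn a gradient of secreted chemokine into directed cell movement. In marrow, CXCR4 binds CXCL12 made by stromal cells and holds hematopoietic cells in place, while CXCR2, the receptor for CXCL1 and CXCL2, draws mature neutrophils out into blood. CCR2 lets inflammatory monocytes leave marrow toward CCL2, CX3CR1 binds the membrane-bound chemokine CX3CL1 and marks patrolling monocytes, and CCR1 binds CCL3 and CCL5. CCR7 and CXCR5 guide lymphocytes to the T zones and follicles of lymph nodes, CXCR3 directs effector T cells and natural killer (NK) cells to CXCL9 and CXCL10, and CCR9 guides cells to CCL25 in gut and thymus.

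The 5 libraries held 33425695 to 43554233 unique molecular identifiers (UMIs, counts of captured transcripts) in all, and 29679 of 32135 barcodes with 500 or more UMIs were kept as cells after those with more than 10% mitochondrial UMIs were left out. Clustering without the 9 receptors, their ligands or their signaling genes gave 42 clusters, of which 17 classes holding 29017 cells were named "-like" from marker lists. Class comparisons used edgeR's normalization factors. Values with plain library totals are given beside them where a receptor's call or direction, or a count given for a gene list, differs. A level below is the number of UMIs of a gene per 10000 UMIs of all genes, summed over the cells of a class in 1 library, with an exact Poisson 95% interval, which covers counting error only. Classes were compared with the 5 mice, which also differ in day, as replicates. The spread behind a p-value is one that edgeR estimates with information shared over all genes. A p-value therefore does not measure a receptor's own spread among mice alone. Days have 1 mouse each and were compared without a test. Free RNA was read in barcodes with at most 100 UMIs, where Cxcr4 stood at 0.856 to 1.18, Ccr2 at 1.38 to 2.18 and Cxcr2 at 0.329 to 0.807, so a low level in a class can be background.

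All 9 genes are protein coding, and their Ensembl identifiers in the matrices match the mouse GRCm38 annotation used here (GENCODE vM21). Cxcr4 (ENSMUSG00000045382) lies at chr1:128588199-128592293 on the minus strand, and Cxcr2 (ENSMUSG00000026180) at chr1:74153989-74161246 on the plus strand. Another 4 lie on chromosome 9 in the order Cx3cr1 (ENSMUSG00000052336, chr9:119901616-120069879, minus strand), Ccr9 (ENSMUSG00000029530, chr9:123678439-123784330, plus strand), Ccr1 (ENSMUSG00000025804, chr9:123962124-123968692, minus strand) and Ccr2 (ENSMUSG00000049103, chr9:124101950-124113557, plus strand), and Cxcr5 (ENSMUSG00000047880, chr9:44511787-44561877, minus strand) is on the same chromosome. Ccr7 (ENSMUSG00000037944) is at chr11:99144196-99155077 and Cxcr3 (ENSMUSG00000050232) at chrX:101731535-101734269, both on the minus strand. The annotated span of Cx3cr1 overlaps Gorasp1, Csrnp1 and Xirp1 on its own strand, and that of Ccr9 overlaps Gm17200 and Gm17020, so reads shared with those genes cannot be assigned with certainty.

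The promoters of 3 receptors that share a top class, the late neutrophil-like cells described below, are printed because they differ in sequence make-up while their transcripts peak in the same cells. Each is a window of 300 bases, mostly upstream of the gene's start in RefSeq (GRCm38.p6), 5′ to 3′ on the gene's strand, with CpG pairs in capitals. The windows are chr1:128592250-128592549 for Cxcr4, chr1:74153744-74154043 for Cxcr2 and chr9:123968643-123968942 for Ccr1.
Cxcr4: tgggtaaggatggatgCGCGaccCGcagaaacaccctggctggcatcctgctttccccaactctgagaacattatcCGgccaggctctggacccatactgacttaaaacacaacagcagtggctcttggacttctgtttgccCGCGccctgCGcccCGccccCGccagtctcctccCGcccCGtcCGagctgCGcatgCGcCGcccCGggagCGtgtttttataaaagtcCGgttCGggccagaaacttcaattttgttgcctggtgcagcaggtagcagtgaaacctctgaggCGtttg
Cxcr2: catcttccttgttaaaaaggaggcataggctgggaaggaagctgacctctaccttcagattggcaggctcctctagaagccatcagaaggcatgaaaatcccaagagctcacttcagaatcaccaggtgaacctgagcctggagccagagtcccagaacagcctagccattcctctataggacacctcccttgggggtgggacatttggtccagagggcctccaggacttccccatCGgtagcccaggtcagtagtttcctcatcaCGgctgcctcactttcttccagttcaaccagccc
Ccr1: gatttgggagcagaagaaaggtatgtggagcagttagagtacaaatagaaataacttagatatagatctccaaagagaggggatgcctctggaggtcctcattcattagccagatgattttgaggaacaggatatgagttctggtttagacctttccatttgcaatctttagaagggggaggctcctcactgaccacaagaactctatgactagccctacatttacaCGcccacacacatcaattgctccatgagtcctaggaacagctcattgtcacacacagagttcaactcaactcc
The Cxcr4 window held 20 CpG pairs, which 26.5% of 32851 mouse promoter windows reached or passed. Cxcr2 held 2 and Ccr1 held 1, counts that 85.9% and 94.6% of windows reached. The motif searched was CG, which reads the same on both strands and does not overlap itself, and the median over all windows was 7 (quartiles 3 and 20). Among the other members with an entry, Cx3cr1 held 5, Cxcr3 and Ccr9 held 4 each and Ccr2 held 1, and 7 of the 9 members had an entry. Of the 7, Cxcr4 alone reached the upper quartile for CpG.

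Cxcr4 was detected in every marrow class, though in some not above what free RNA could bring, and was highest in late neutrophil-like cells. There its level was 2.1 at day 0, 2.12 at day 3, 2.17 at day 6, 2.27 at day 9 and 2.24 at day 12, a highest to lowest ratio of 1.08. In mature neutrophil-like cells it was 1.23, 1.64, 1.83, 1.72 and 1.55 at the same days. The 5 late values did not overlap the 5 mature values, and their means differed 1.36-fold. Below these, the neighbors in the order of classes overlapped one another, with 1 exception. Classical monocyte-like cells were above neutrophil precursor-like cells (0.614 to 0.854) without overlap, and their means differed 1.31-fold. Immature neutrophil-like cells had 0.79 to 1.18, classical monocyte-like cells 0.876 to 1.05, B-like cells 0.921 to 1.24 and pro/pre-B-like cells 0.76 to 1.42. T-like cells, at 0.605 to 0.78, conventional dendritic-like cells, at 0.279 to 1.04, and plasmacytoid dendritic-like cells, at 0.468 to 0.628, were at the lower end. Of all Cxcr4 UMIs in cells, no class held more than 23% in any library.

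The share of late neutrophil-like cells with a Cxcr4 UMI was 31.9% to 38.4%, which was no higher than in classical monocyte-like cells (34.9% to 43.4%). The monocyte-like cells had median depths of 5675.5 to 7894.5 UMIs against 1863 to 2268 in late neutrophil-like cells. With every cell thinned to 1000 UMIs the shares were 18.4% to 20% in late neutrophil-like and 8.04% to 9.82% in classical monocyte-like cells, the same order as the levels. Cxcr4 in free RNA, 0.856 to 1.18, was as high as in several classes. From the S100a8 in each class, a neutrophil transcript carried by free RNA, an upper bound of the Cxcr4 that free RNA could bring was set, a check chosen after seeing the data. Measured Cxcr4 exceeded that bound in 5 of 5 libraries in B-like, T-like, NK-like, pro/pre-B-like, classical monocyte-like and both dendritic-like classes. It did so in 0 of 2 libraries in stromal/endothelial-like cells (means 0.206 measured and 1.24 for the bound). The count was 2 of 3 in erythroid-like (0.345 and 0.276) and 2 of 4 in nonclassical monocyte-like cells (1.32 and 1.21). The bound covers free RNA only, not a neutrophil captured together with another cell. For Cxcr2, a neutrophil receptor, erythroid-like cells passed their bound in 3 of 3 libraries (means 0.609 and 0.181). A level above a bound is therefore not shown to be the class's own.

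**Figure D1:**
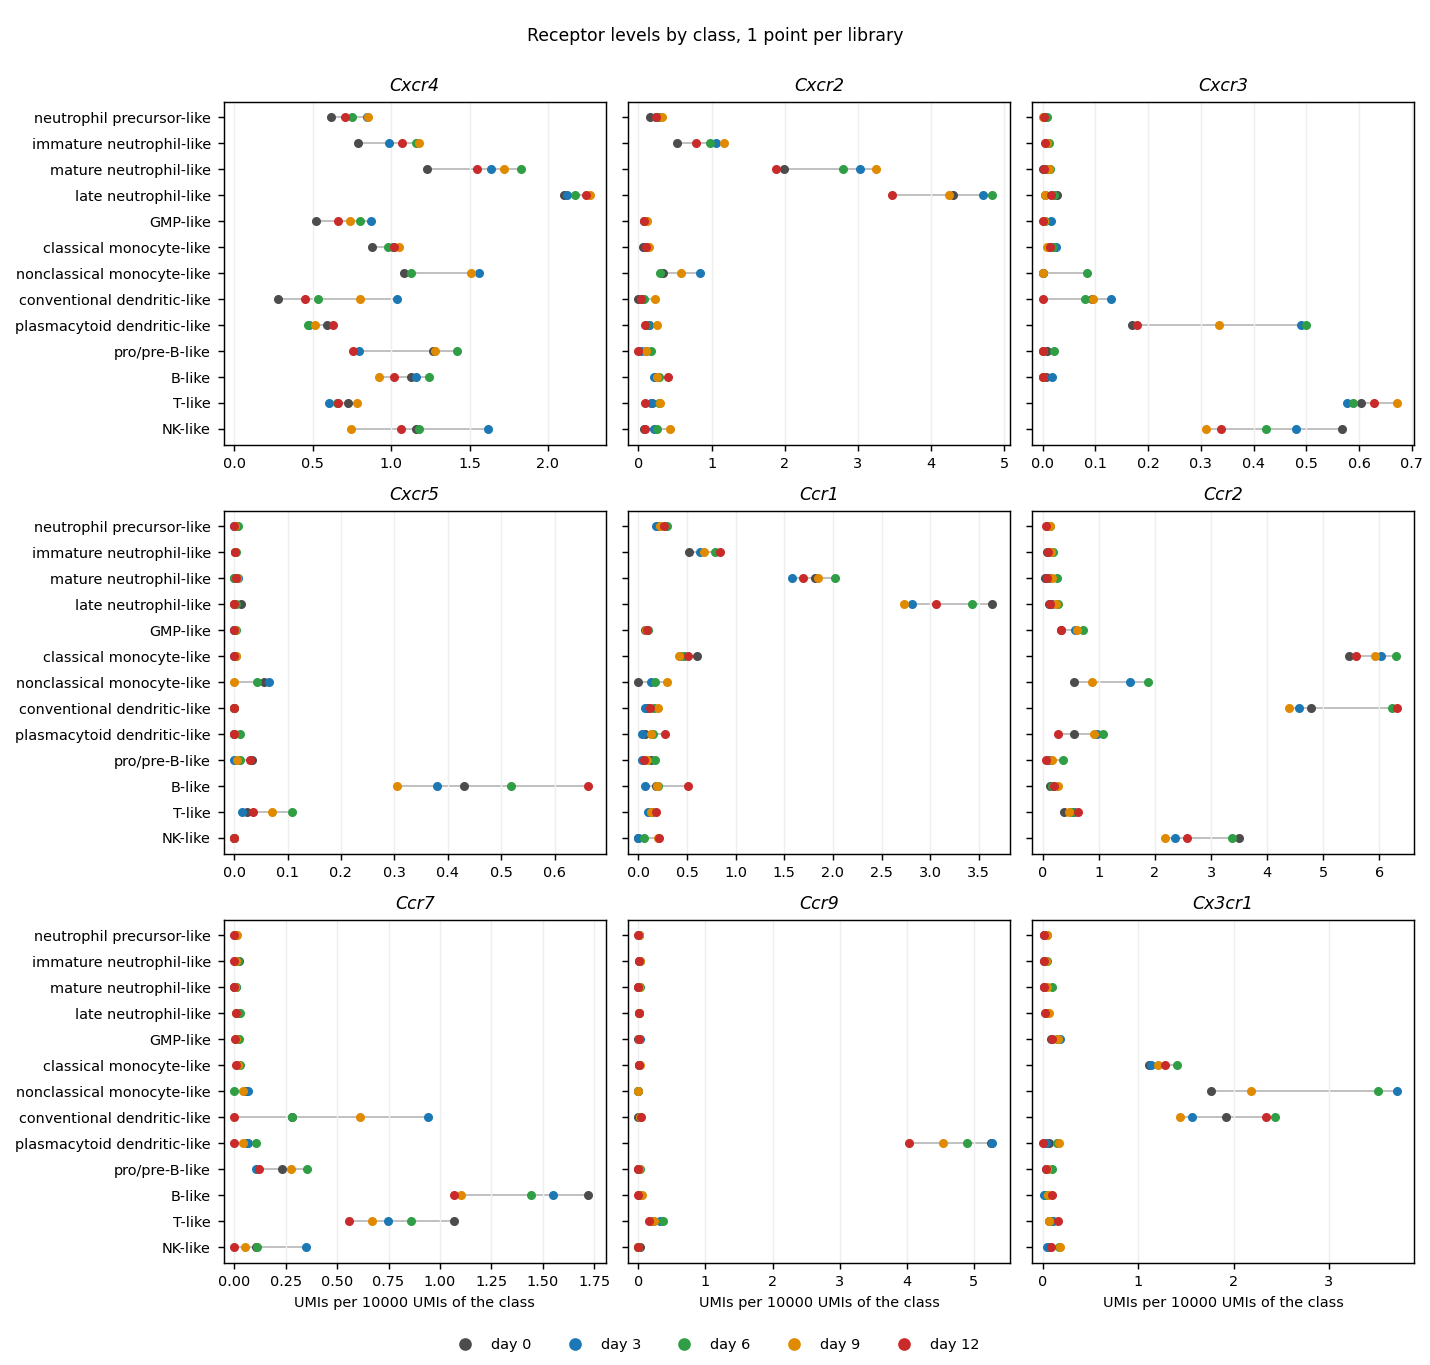
Level of each receptor (UMIs per 10000 UMIs of all genes) in 13 classes, with 1 point for each day's library and 1 panel per gene. Cxcr4 has values in all classes with its top at 2.1 to 2.27 in late neutrophil-like cells, while Ccr9 stands at 4.04 to 5.28 in plasmacytoid dendritic-like cells and at 0.373 or less elsewhere.

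Cxcr2 and Ccr1 followed the neutrophil stages more steeply than Cxcr4 did. Late neutrophil-like cells had Cxcr2 at 4.3, 4.71, 4.84, 4.25 and 3.46 from day 0 to day 12, against 0.529, 1.06, 0.98, 1.17 and 0.785 in immature neutrophil-like cells. Ccr1 was 3.64, 2.81, 3.43, 2.73 and 3.06 in late and 0.519, 0.635, 0.785, 0.675 and 0.834 in immature cells. In both genes late, mature and immature cells formed 3 ranges without overlap, the precursor-like cells being lower again at 0.162 to 0.316 for Cxcr2 and 0.179 to 0.292 for Ccr1. Late cells were higher than immature cells by 2.1 ± 0.10 on the log2 scale for Cxcr2 (SE, n = 5 libraries, adjusted p = 1.26e-13), by 2.01 ± 0.09 for Ccr1 (adjusted p = 5.22e-14) and by 0.90 ± 0.08 for Cxcr4 (adjusted p = 1.57e-09). Ccr2 was higher by 0.40 ± 0.13 (adjusted p = 0.0137), a call that was lost without the day 9 library (0.34, adjusted p = 0.0699), without the mouse as a block (0.39, adjusted p = 0.171) and in DESeq2 (0.38, adjusted p = 0.148). Of 5 members tested, 4 were higher and 0 lower in late cells in edgeR, with Cx3cr1 at 0.50 ± 0.26 (adjusted p = 0.116), where 27.5% of the 7251 genes tested were higher and 24.5% lower. With plain library totals the median over all genes was 0.18 rather than 0, 37.1% of genes were higher and 16.4% lower, and 5 of the 5 members were higher, Cx3cr1 included (0.68, adjusted p = 0.0357).

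**Figure D2:**
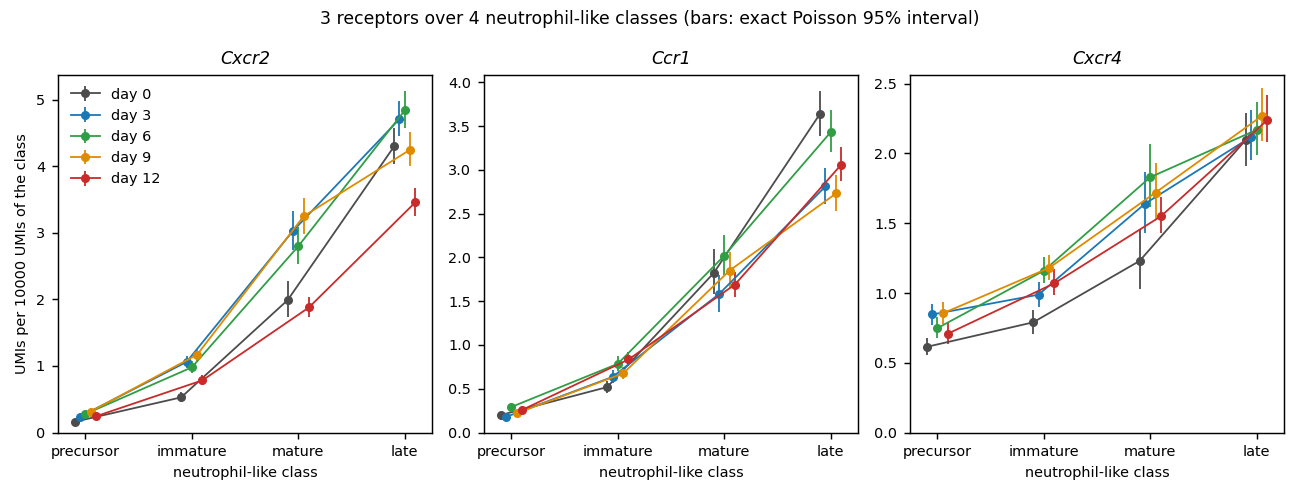
Levels of Cxcr2, Ccr1 and Cxcr4 (UMIs per 10000 UMIs) over 4 neutrophil-like stages, 1 line per day, with exact Poisson 95% intervals as bars. In all 5 libraries each gene is highest in late cells, at 3.46 to 4.84 for Cxcr2, 2.73 to 3.64 for Ccr1 and 2.1 to 2.27 for Cxcr4.

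Other genes of the chemokine system differed between the same stages, as did many genes. Of all 7251 genes tested, 27.5% were higher and 24.5% lower in late cells (37.1% and 16.4% with plain totals). Of 8 chemokine ligands tested, 6 were higher and 0 lower in late than in immature cells in edgeR, or 7 and 0 with plain totals. The largest changes were those of Ccl6 (4.03 ± 0.13 on the log2 scale, adjusted p = 1.01e-16) and Cxcl2, a CXCR2 ligand (3.78 ± 0.14, adjusted p = 7.91e-16). Ccl4 (3.69 ± 0.18, adjusted p = 1.52e-13) and Ccl3, a CCR1 ligand (2.94 ± 0.14, adjusted p = 4.92e-14), came next. Ccrl2, an atypical chemokine receptor gene, was the only other receptor with enough counts, at 3.50 ± 0.21 (adjusted p = 2.78e-12). Of 21 genes of receptor signaling, 11 were higher and 5 lower (13 and 3 with plain totals), with Rgs1 (1.84 ± 0.23, adjusted p = 4.83e-07) and Rgs2 (1.29 ± 0.08, adjusted p = 2.36e-12), regulators that switch off G proteins, among those higher. Cxcl2 itself had its highest mean level in late neutrophil-like cells, at 3.29 to 25.7 across days.

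Late neutrophil-like cells with a Cxcr4 UMI had a Cxcr2 UMI no more often than those without one. Among 4964 late neutrophil-like cells thinned to 1000 UMIs, 31.3% of the 936 with a Cxcr4 UMI also had a Cxcr2 UMI, against 36% of those without one. For Cxcr2 and Ccr1 the share was 32.1% of 1742 Cxcr2 cells against 25.9% of the rest. These shares are descriptions, since cells of 1 mouse are not replicates.

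Late neutrophil-like cells contained 1 cluster that was higher in Cxcr4 than the rest of the class in 5 of 5 libraries, at 3.52 to 3.97 against 1.6 to 1.9. It made up 18.1% to 22.5% of the class, and its leading genes included Il1b and Cxcl2, an inflammatory cytokine and chemokine, and Il1r2. A different cluster of the same class was highest in Cxcr2, at 5.19 to 6.52 against 3.09 to 3.8 in the rest. Clusters of the same kind were found in 5 further classes, each higher in Cxcr4 than its class remainder in 5 of 5 libraries. In classical monocyte-like cells the cluster was led by Cd14, Thbs1 and Nr4a2 and had 1.56 to 2.51 against 0.671 to 0.956. In NK-like cells a cluster led by Gzma, with Xcl1 and Crem further down its leading genes, had 2.46 to 3.91 against 0.357 to 0.698. In T-like cells a cluster led by Ikzf2, with Crem and Nr4a3 among its leading genes, had 1.7 to 2.03 against 0.406 to 0.616. In B-like cells the ranges were 1.88 to 2.7 and 0.474 to 0.988. In pro/pre-B-like cells the cluster had 1.82 to 2.88 against 0.51 to 1.14. Its leading genes included Vpreb3, Ebf1 and Rag1, genes of the early B lineage. The clusters were picked as the highest of each class, so these values are descriptions.

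A list of 15 immediate-early genes, chosen after seeing these clusters, moved with some of them. Its summed level was higher in the Cxcr4 cluster than in the rest of the class in 5 of 5 libraries for B-like (34 to 66.1 against 18.7 to 42.9), pro/pre-B-like (26.6 to 75.8 against 8.57 to 36.1), T-like (40 to 50.4 against 18.3 to 31.7) and NK-like cells (38 to 68 against 21.7 to 55.9). It was higher in 4 of 5 libraries in classical monocyte-like cells and in 1 of 5 in late neutrophil-like cells (58.7 to 105 against 69.4 to 136). Immediate-early genes are those that cells switch on within minutes of a stimulus or of tissue dissociation, and their part in the Cxcr4 levels was not tested.

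**Figure D3:**
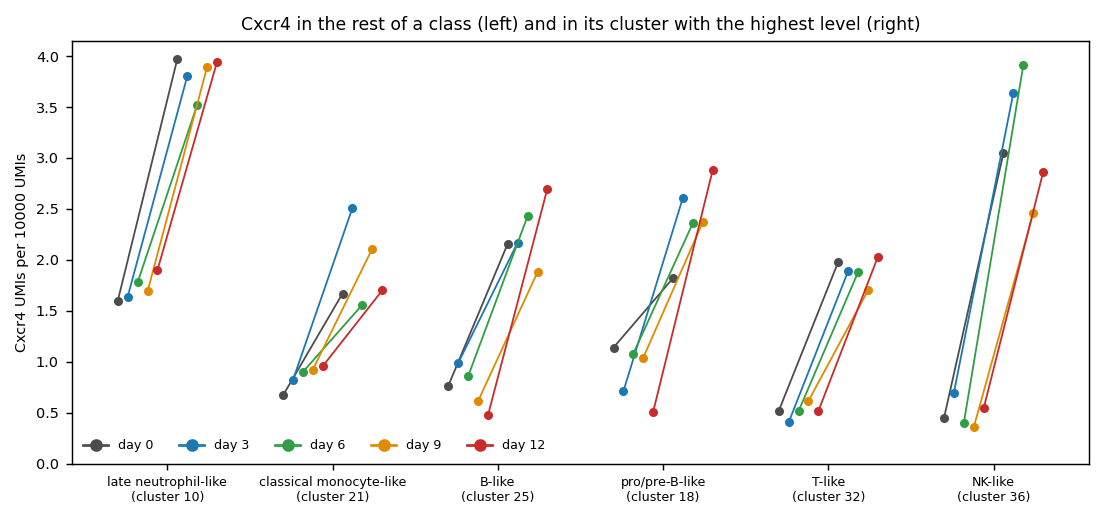
Level of Cxcr4 (UMIs per 10000 UMIs) in the highest cluster of 6 classes and in the rest of the same class, with 1 line per day's library. All lines rise toward the cluster, for example from 1.6 to 1.9 up to 3.52 to 3.97 in late neutrophil-like cells.

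Ccr2 and Cx3cr1 divided the monocyte and dendritic classes. Classical monocyte-like cells had Ccr2 at 5.45, 6.02, 6.29, 5.92 and 5.58 from day 0 to day 12, and conventional dendritic-like cells at 4.78, 4.57, 6.22, 4.38 and 6.31. These 2 classes overlapped, and NK-like cells came next at 3.49, 2.36, 3.38, 2.18 and 2.58, below every value of both. Classical monocyte-like cells held 75.3% to 82.3% of all Ccr2 UMIs in a library, and 87.9% to 94.9% of these cells had at least 1 UMI, against 2.25% to 6.07% of B-like cells, whose median depth was 1328.5 to 1923 UMIs. Once thinned, the share was 42.4% to 48.7% in classical monocyte-like cells. All neutrophil-like cells as 1 class were lower than monocyte-like cells in Ccr2 (log2 difference -4.43 ± 0.11, n = 5, adjusted p = 6.18e-15) and in Cx3cr1 (-4.23 ± 0.15, adjusted p = 2.23e-13), at -5.57 and -5.37 with plain library totals. T-like cells had Ccr2 at 0.386 to 0.628, where the bound for free RNA averaged 0.552 against a measured mean of 0.512.

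Cx3cr1 was highest in nonclassical monocyte-like cells, at 1.76, 3.71, 3.51 and 2.18 at days 0, 3, 6 and 9, while the 6 cells of day 12 were too few to use. Conventional dendritic-like cells had 1.92, 1.56, 2.43, 1.44 and 2.34, and classical monocyte-like cells 1.11, 1.14, 1.41, 1.21 and 1.28. The first 2 classes overlapped, and every value of the second was above every value of the third. Classical monocyte-like cells, being many more, still held 67% to 78.9% of Cx3cr1 UMIs. NK-like cells had 0.0437 to 0.182, from 1 to 10 UMIs a library. Within classical monocyte-like cells 1 cluster was highest in both Ccr2 and Cx3cr1. Its Ccr2 was 8.61 to 9.83 against 4.81 to 5.58 in the rest, and its Cx3cr1 2.25 to 2.86 against 0.761 to 1.12. The leading genes of that cluster included Ms4a4c and Ifi204, an interferon-inducible gene. In thinned cells 16.2% of 1669 classical monocyte-like cells with a Ccr2 UMI had a Cx3cr1 UMI, against 10.6% of those without.

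Nonclassical monocyte-like cells were compared with classical ones in 4 libraries, with 29 to 63 nonclassical cells in each. Cx3cr1 was higher by 1.36 ± 0.16 on the log2 scale (SE, n = 4 libraries, adjusted p = 1.51e-16) and Ccr2 lower (-2.1 ± 0.17, adjusted p = 2.06e-34), the pattern by which the 2 monocyte types are usually told apart. With classes set cell by cell the Ccr2 difference shrank to -0.73 (adjusted p = 1.14e-07). Cxcr2 was higher by 2.31 ± 0.35 (adjusted p = 1.54e-09) and Cxcr4 by 0.62 ± 0.19 (adjusted p = 0.00775), and Ccr1 was lower (-1.36 ± 0.37, adjusted p = 0.00318). Its Ccr2 level was 0.566, 1.56, 1.88 and 0.882 at days 0 to 9, all below the classical values. The nonclassical class carried S100a8 at 770 to 1460 per 10000 UMIs, against 133 to 177 in the classical class and 2130 to 2630 in neutrophil-like cells. Its Cxcr2 averaged 0.517, under the 0.771 that its S100a8 would bring as free RNA, in 4 of 4 libraries, and its Cxcr4 averaged 1.32 against 1.21, above the bound in 2 of 4. Its Ccr2 was also under the bound in 4 of 4 libraries (means 1.22 and 2.11), while its Cx3cr1 averaged 2.79 against 0.297. The Ccr1 call was lost without day 0 (-0.91, adjusted p = 0.1) and with classes set cell by cell (-0.15, adjusted p = 0.654). The Cxcr4 call was lost without day 3 (0.57, adjusted p = 0.0572), without day 9 (0.56, adjusted p = 0.106) and with plain library totals (0.42). In edgeR 3 of 5 members tested were higher and 2 lower, with 7.36% of 9044 genes higher and 9.95% lower. With plain totals the median over all genes was -0.34, 2 members were higher and 2 lower, and 5.62% of genes were higher and 16.3% lower. Of 10 ligand genes tested, 2 were higher and 3 lower, or 2 and 4 with plain totals. Ccl2, the CCR2 ligand, was at -2.90 ± 0.41 (adjusted p = 4.81e-11) and Ccl5 at 1.46 ± 0.26 (adjusted p = 7.67e-07). Of 21 signaling genes, 5 were higher and 2 lower, or 3 and 2 with plain totals.

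Across all neutrophil-like against all monocyte-like cells, Cxcr2 was higher by 4.71 ± 0.10 (n = 5, adjusted p = 8.04e-16), Ccr1 by 2.30 ± 0.08 (adjusted p = 2.77e-13) and Cxcr4 by 1.40 ± 0.06 (adjusted p = 3.51e-12). These values rest on edgeR's normalization factors. With plain library totals the median over all genes was -1.14 rather than -0.01, and the 3 values were 3.58 for Cxcr2, 1.16 for Ccr1 and 0.26 for Cxcr4. Ccr9 was higher by 0.88 ± 0.28 (adjusted p = 0.00865) with the factors and at -0.22 (adjusted p = 0.491) without them, on mean levels of 0.00997 in neutrophil-like and 0.0118 in monocyte-like cells. In edgeR 4 of 8 members tested were higher and 2 lower in neutrophil-like cells, where 39.3% of 10509 genes were higher and 39.9% lower. With plain totals 3 members were higher and 4 lower, and 11.8% of genes were higher and 79.2% lower. Without the mouse as a block the Ccr9 call was also lost (0.83, adjusted p = 0.0735). Cxcr3 at 0.08 (adjusted p = 0.801) and Ccr7 at -0.07 (adjusted p = 0.82) did not pass the test, but with plain totals both were lower, at -1.04 (adjusted p = 0.00247) and -1.18 (adjusted p = 6e-04). Ccr7 was also lower with no mitochondrial limit (-1.16, adjusted p = 0.00275) and at a lower clustering resolution (-1.17, adjusted p = 0.00388). Among ligands, 5 of 10 were higher and 4 lower (1 and 6 with plain totals), with Ccl2 at -3.93 ± 0.12 (adjusted p = 6.85e-14) and Ccl9, a CCR1 ligand, at -3.73 ± 0.11 (adjusted p = 4.54e-14). Of 21 signaling genes, 18 were higher and 1 lower, a split that turned to 4 higher and 12 lower with plain totals (medians 0.91 and -0.23), so their direction rests on the scaling. The largest change was that of Arrb2, a beta-arrestin that ends receptor signaling (2.91 ± 0.06, adjusted p = 5.43e-16). Ccr1 was also present in classical monocyte-like cells, at 0.417 to 0.602, above its free RNA bound in 5 of 5 libraries (means 0.485 and 0.11).

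**Figure D4:**
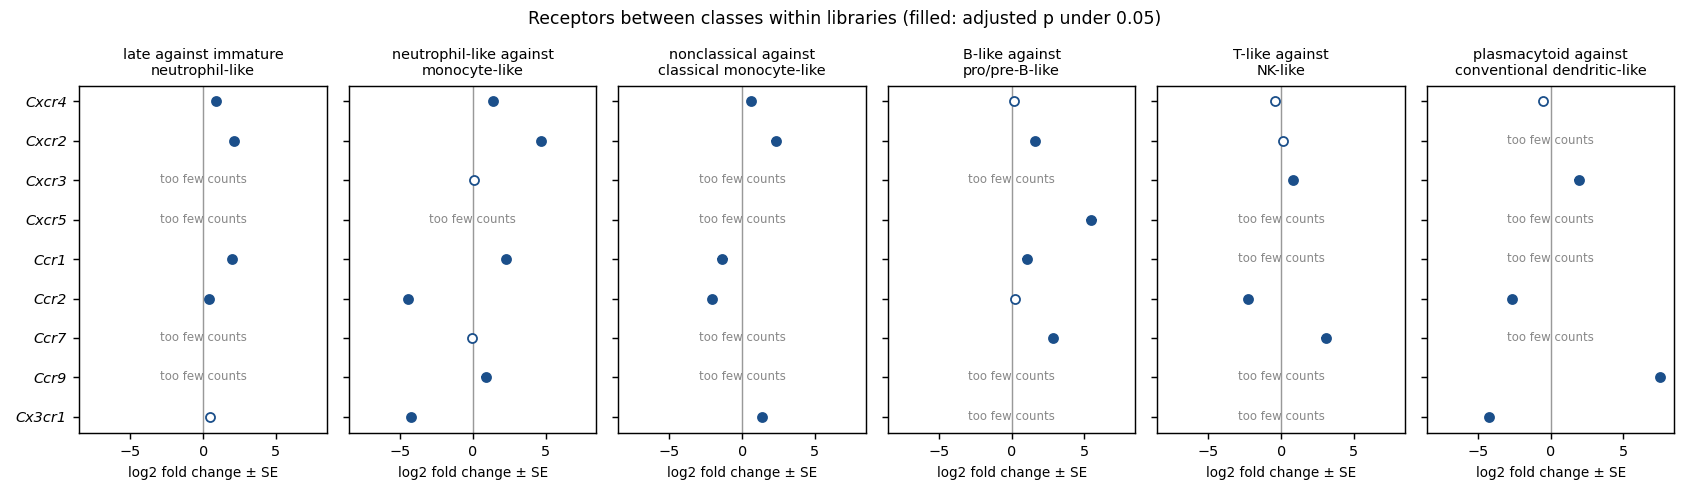
Log2 fold change of each receptor, with its standard error as a bar, in 6 comparisons of classes over 4 or 5 libraries, where filled points have an adjusted p under 0.05 in edgeR and receptors with too few counts are marked. The largest positive value is Ccr9 in plasmacytoid against conventional dendritic-like cells (7.52), and Ccr2 and Cx3cr1 in neutrophil-like against monocyte-like cells are at -4.43 and -4.23.

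Cxcr5 and Ccr7 had their highest levels in B-like cells, the more mature of the 2 B lineage classes, though Ccr7 was shared with T-like cells. Cxcr5 was 0.431, 0.38, 0.519, 0.304 and 0.663 in B-like cells from day 0 to day 12, and 0 to 0.0329 in pro/pre-B-like cells. Ccr7 was 1.72, 1.55, 1.44, 1.1 and 1.07 in B-like and 0.23, 0.106, 0.356, 0.274 and 0.122 in pro/pre-B-like cells. Neither gene overlapped between the 2 classes. B-like cells were higher by 5.48 ± 0.38 for Cxcr5 (SE, n = 5, adjusted p = 9.01e-10) and by 2.86 ± 0.21 for Ccr7 (adjusted p = 1.96e-09). Pro/pre-B-like cells at day 3 had 0 Cxcr5 UMIs in 304 cells, and the 3 UMIs that a count of 0 allows would be a level of 0.00813. B-like cells held 66.7% to 84.6% of the Cxcr5 UMIs in a library, and 7.05% to 12% of these cells had 1 (3.37% to 7.78% once thinned), against 0% to 2% of the deeper pro/pre-B-like cells. Of the Ccr7 UMIs, B-like cells held 31% to 48.2% and T-like cells 18.3% to 47%.

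Cxcr4 did not pass the test between these B lineage classes (0.15 ± 0.14, adjusted p = 0.408), and its sign changed with the scaling (-0.05 with plain library totals). Cxcr2 (1.60 ± 0.29, adjusted p = 0.000155) and Ccr1 (1.02 ± 0.28, adjusted p = 0.00579) were called higher in B-like cells. Both are neutrophil receptors, and the levels in B-like cells, on average 0.278 for Cxcr2 and 0.231 for Ccr1, stood beside free RNA bounds of 0.29 and 0.261 and exceeded them in 3 of 5 and 2 of 5 libraries, while S100a8 was 203 to 435 in B-like against 101 to 231 in pro/pre-B-like cells. With no mitochondrial limit both calls were lost (0.66 and 0.11, adjusted p = 0.111 and 0.803), and with at least 1000 UMIs per cell the Ccr1 call was lost (0.22, adjusted p = 0.627). In edgeR 4 of 6 members tested were higher and 0 lower, with Ccr2 at 0.22 (adjusted p = 0.541), where 24.3% of 7809 genes were higher and 25.2% lower. With plain totals the median over all genes was -0.19, the member count was again 4 and 0, and 17% of genes were higher and 33.1% lower. Ccr6, another receptor of mature B cells, was higher by 6.56 ± 0.55 (adjusted p = 9.87e-09), and of 20 signaling genes 10 were higher and 1 lower, or 7 and 4 with plain totals.

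One pro/pre-B-like cluster of 126 cells came from the day 3 library alone, with a median of 20052.5 UMIs against 2978.5 in the other 178 pro/pre-B-like cells of that day. Its Cxcr4 level was 0.668 and its Ccr7 level 0.0266. Without it, the day 3 level of the class was 1.12 in place of 0.797 for Cxcr4 and 0.303 in place of 0.106 for Ccr7. The difference between B-like and pro/pre-B-like cells without that cluster was 5.15 ± 0.32 for Cxcr5 (adjusted p = 1.74e-15) and 2.54 ± 0.14 for Ccr7 (adjusted p = 1.09e-16), a comparison added after seeing the data. Whether those cells are host cells or injected leukemia cells was not tested.

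T-like and NK-like cells shared Cxcr3 and differed in Ccr7 and Ccr2. Cxcr3 was 0.603, 0.577, 0.588, 0.671 and 0.628 in T-like and 0.568, 0.481, 0.423, 0.309 and 0.338 in NK-like cells from day 0 to day 12. Ccr7 was 1.07, 0.746, 0.861, 0.671 and 0.556 in T-like cells. The T-like Cxcr3 values were all above the NK-like ones, and the T-like Ccr7 values were all below those of B-like cells, by a margin under the rounding used here at their nearest (both 1.07). T-like cells were higher by 3.05 ± 0.29 for Ccr7 (SE, n = 5, adjusted p = 2.84e-09) and by 0.79 ± 0.19 for Cxcr3 (adjusted p = 0.00266), and lower for Ccr2 (-2.29 ± 0.14, adjusted p = 6.3e-13). The Cxcr3 call was lost in DESeq2 (0.76, adjusted p = 0.0803), at a lower clustering resolution (0.43, adjusted p = 0.128) and with a mitochondrial limit of 3 median absolute deviations (0.48, adjusted p = 0.145). In edgeR 2 of 5 members tested were higher and 1 lower, with Cxcr2 at 0.14 (adjusted p = 0.771), where 12.2% of 4842 genes were higher and 10.7% lower. With plain totals the median over all genes was -0.22, 2 members were higher and 2 lower, and 7% of genes were higher and 24.9% lower.

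Cxcr4 was at -0.43 ± 0.17 in T-like against NK-like cells (adjusted p = 0.0601), a value that depended on how the cells were grouped. It was 1.24 (adjusted p = 6.21e-07) with a lower clustering resolution and 1.13 (adjusted p = 0.000119) with that mitochondrial limit, while it passed the test as lower with plain totals (-0.67, adjusted p = 0.00284), with the highest doublet scores left out (-0.54, adjusted p = 0.0364), with classes set cell by cell (-0.43, adjusted p = 0.0454) and without day 9 (-0.66, adjusted p = 0.0055). The cause was not tested. NK-like cells had 1.16, 1.62, 1.18, 0.745 and 1.06 from day 0 to day 12, and T-like cells 0.726, 0.605, 0.654, 0.78 and 0.664. Of 7 ligand genes, 1 was higher and 4 lower in T-like cells, or 0 and 4 with plain totals. Among the lower ones were Ccl4 at -3.18 ± 0.18 (adjusted p = 4.87e-14), Xcl1 at -1.58 ± 0.11 (adjusted p = 8.79e-12) and Ccl5 at -1.08 ± 0.08 (adjusted p = 2.64e-11). Cxcr6, a receptor of tissue-resident T cells, was higher by 4.34 ± 0.34 (adjusted p = 4.37e-11). Of 18 signaling genes, 1 was higher and 5 lower, or 0 and 7 with plain totals.

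The T-like class itself was divided by receptor. A cluster with Ccl5 among its leading genes had Cxcr3 at 0.905 to 1.06 against 0.0716 to 0.382 in the other T-like cells. Its Ccr2 was 0.435 to 0.983 against 0.199 to 0.434. The cluster high in Cxcr4 had Ccr7 at 1.34 to 2.45 against 0.418 to 0.859, and a cluster led by Cd8b1, a CD8 chain, and Dapl1 had Ccr9 at 0.354 to 0.665 against 0.0556 to 0.209. Cxcr3 and Ccr7 UMIs were rarely in the same cell. Of 155 thinned T-like cells with a Ccr7 UMI, 3 had a Cxcr3 UMI (1.94%), against 6.41% of those without Ccr7. In B-like cells, by contrast, 23.8% of 214 cells with a Cxcr4 UMI had a Ccr7 UMI, against 12% of those without, and the B-like cluster highest in Cxcr4 had Ccr7 at 1.33 to 3.97 against 0.947 to 1.15.

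Ccr9 had the widest gap between its highest class and the next. Plasmacytoid dendritic-like cells, producers of type I interferon, had 5.26 at day 0 (95% interval 4.63 to 5.96), 5.28 at day 3 (4.81 to 5.78), 4.9 at day 6 (4.47 to 5.36), 4.54 at day 9 (4.13 to 4.99) and 4.04 at day 12 (2.94 to 5.4). T-like cells came next at 0.217, 0.324, 0.373, 0.234 and 0.162, and the mean of the first class was 18.3 times that of the second. Of plasmacytoid dendritic-like cells 71.6% to 79.2% had a Ccr9 UMI, against 0.0738% to 0.588% of neutrophil-like cells (median depths 3771 to 5224 and 3110 to 3568.5 UMIs), and 29.5% to 42.7% had one once thinned. The class held 65.2% to 87.7% of Ccr9 UMIs in a library. It was higher than conventional dendritic-like cells by 7.52 ± 0.21 for Ccr9 (SE, n = 5, adjusted p = 4.25e-17) and by 1.92 ± 0.30 for Cxcr3 (adjusted p = 1.72e-05). Cxcr3 in plasmacytoid dendritic-like cells was 0.17, 0.49, 0.499, 0.334 and 0.179 from day 0 to day 12, a range that overlapped that of NK-like cells. Cx3cr1 (-4.20 ± 0.24, adjusted p = 6.07e-12) and Ccr2 (-2.66 ± 0.14, adjusted p = 1.02e-12) were lower.

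In that comparison 2 of 5 members tested were higher and 2 lower in edgeR, with 19.7% of 5932 genes higher and 20.2% lower. With plain totals the median over all genes was 0.14, the member counts were again 2 and 2, and 25.2% of genes were higher and 16% lower. Cxcr4 was at -0.52 ± 0.22 (adjusted p = 0.0653) and passed the test without day 0 (-0.71, adjusted p = 0.00549) or day 12 (-0.58, adjusted p = 0.0369). Of 6 ligands 1 was higher and 5 lower, led by Ccl9 (-4.22 ± 0.14, adjusted p = 6.83e-16), and of 21 signaling genes 2 were higher and 10 lower, or 5 and 6 with plain totals. Ccr7, the receptor by which activated dendritic cells reach lymph nodes, was 0.279, 0.94, 0.28, 0.611 and 0 in conventional dendritic-like cells from day 0 to day 12. The 0 came from 42 cells, where the 3 UMIs that a count of 0 allows would be a level of 0.123, and no more than 11.9% of these cells had a Ccr7 UMI in any library.

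Days were read within 8 classes, for members with at least 100 UMIs in the class, as the ratio of the highest to the lowest day. Cxcr4 was under a 2-fold ratio in all 8, at 1.08 in late neutrophil-like, 1.2 in classical monocyte-like, 1.29 in T-like, 1.35 in B-like, 1.39 in precursor-like, 1.49 in immature, 1.49 in mature and 1.87 in pro/pre-B-like cells. In cells thinned to 1000 UMIs the ratio in B-like cells was 2.19, on 238 UMIs, and it remained under 2-fold in the other 7 classes. Its level in immature cells was 0.79 at day 0 (95% interval 0.707 to 0.88) and 1.18 at day 9 (1.09 to 1.27), with intervals that did not overlap. With 1 mouse per day, a difference between days cannot be told apart from a difference between mice. The paper's flow cytometry found the largest share of leukemia cells at day 12. Whether the B lineage classes of that day hold leukemia cells was not tested.

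Cxcr2 passed the 2-fold mark in immature neutrophil-like cells, at 2.2, or 1.95 after thinning. Its level there rose from 0.529 at day 0 (0.461 to 0.603) to 1.17 at day 9 (1.08 to 1.26). The clusters that make up this class changed in size as well. The one highest in Cxcr2 (1.41 to 1.82 across libraries) grew from 104 to 718 cells between those days. Another, at 0.413 to 0.954, shrank from 498 to 66. The remaining clusters ranged over 0.42 to 0.661 and 0.343 to 0.902. How far this mix sets the ratio was not tested. In late cells the lowest Cxcr2 value was 3.46 at day 12 (3.26 to 3.68), a ratio of 1.4. Ccr2 passed in all 4 neutrophil-like stages, at 2.14 in precursor-like, 2.34 in immature, 5.8 in mature and 2.3 in late cells, highest at day 6 each time. The ratio in mature cells rests on 5 UMIs at day 0 (0.0453, interval 0.0147 to 0.106) against 39 at day 6 (0.263, interval 0.187 to 0.359). Free RNA was also highest in Ccr2 at day 6 (2.18), and its part in these ratios was not tested. The members past 2-fold were 1 of 4 assessed in precursor-like, 2 of 4 in immature, 1 of 4 in mature and 1 of 4 in late cells, where 13.4%, 14.5%, 18.9% and 14% of all genes assessed passed.

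In classical monocyte-like cells 1 of 5 assessed members passed 2-fold, Cxcr2 at 2.48 on a mean level of 0.111, where 8.78% of genes passed. Ccr2 at 1.15 and Cx3cr1 at 1.27, the receptors of these cells, varied little. In B-like cells 1 of 4 passed, Cxcr5 at 2.18 between day 9 and day 12, with overlapping intervals (0.213 to 0.421 and 0.353 to 1.13), against 26.4% of genes. Ccr7 had a ratio of 1.61 there, from 1.72 at day 0 (1.52 to 1.95) to 1.07 at day 12 (0.663 to 1.64), and one of 2.01 after thinning. In T-like cells 2 of 6 passed, Ccr9 at 2.31 and Cxcr2 at 3.3, against 15.8% of genes, while Cxcr3 had the smallest ratio at 1.16. Ccr7 in T-like cells had a ratio of 1.92, from 1.07 at day 0 (0.921 to 1.24) to 0.556 at day 12 (0.378 to 0.79). In pro/pre-B-like cells 2 of 3 passed, Ccr2 and Ccr7, against 36% of genes. For Ccr2 the lowest day was day 12, with 2 UMIs in 50 cells (interval 0.00737 to 0.22), which sets no firm ratio against 0.367 at day 6, and thinning gave 2.31. The Ccr7 ratio was 3.37, or 1.97 after thinning, and its lowest value was that of day 3, to which the cluster of 126 cells belongs.

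Summed over all cells of a library, the lymphoid receptors varied more between days than within their class. Ccr9 over all cells was 0.109, 0.171, 0.178, 0.164 and 0.0258 from day 0 to day 12, and Ccr7 was 0.178, 0.0939, 0.155, 0.102 and 0.0247. At day 12 the library held 23 plasmacytoid dendritic-like cells, against 95 to 203 at the other days, and 106 B-like cells against 222 to 801. Within plasmacytoid dendritic-like cells the day 12 Ccr9 level was 4.04, inside an interval that overlapped those of all other days. Ccr7 was at its lowest at day 12 within B-like and T-like cells too. In the sums over all cells, fewer cells of a type and less RNA per cell cannot be told apart. Cxcr4 over all cells ranged from 0.877 at day 0 to 1.1 at day 12.

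**Figure D5:**
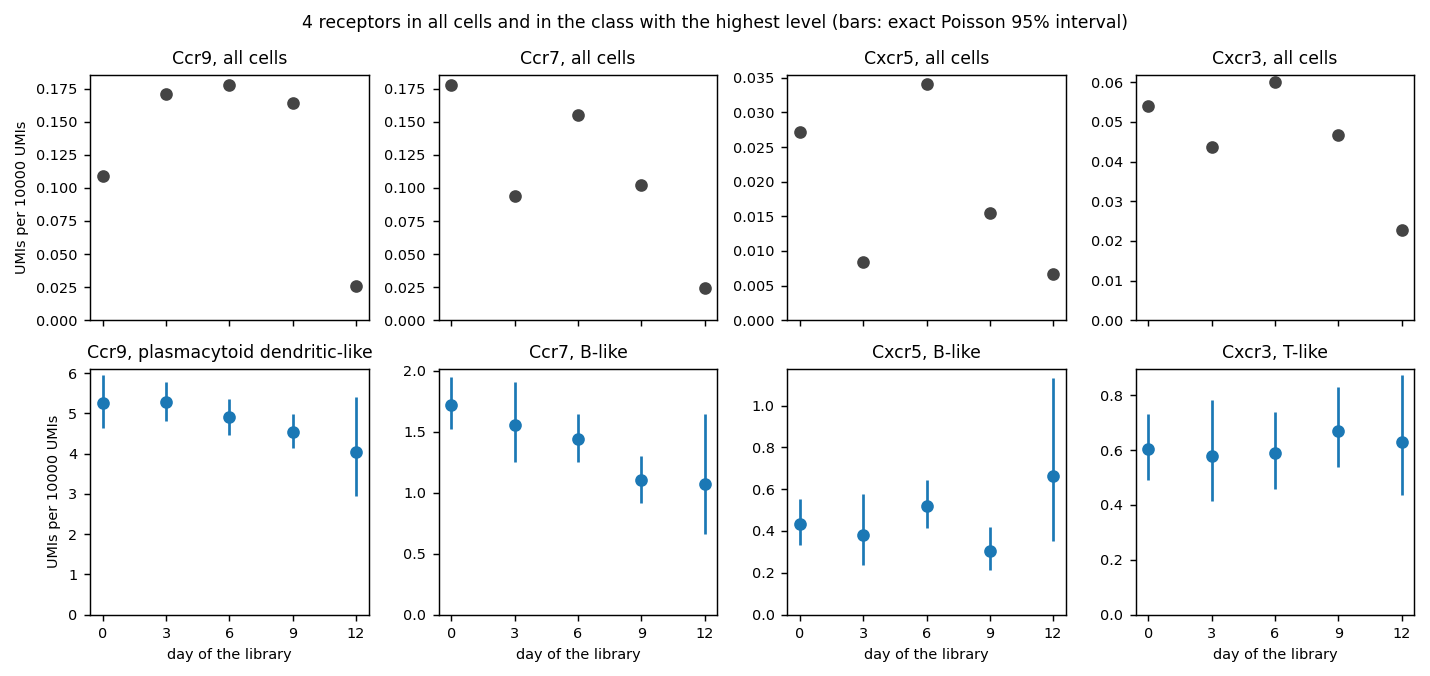
Levels of Ccr9, Ccr7, Cxcr5 and Cxcr3 (UMIs per 10000 UMIs) by day in all cells of a library and in the class where each is highest. Ccr9 in all cells is 0.0258 at day 12 against 0.109 to 0.178 before, while in plasmacytoid dendritic-like cells it is 4.04 against 4.54 to 5.28.

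Several ligands of these receptors had a clear top class. Cxcl12, the CXCR4 ligand, was at 13.7 and 21.1 in the 2 libraries with at least 10 stromal/endothelial-like cells (10 and 22 cells). It was at 0.0477 in the next class. The leading genes of the stromal/endothelial-like cells included the cartilage matrix genes Col2a1 and Comp. Ccl5 was highest in NK-like cells (76.2 to 116), Ccl9 in classical monocyte-like cells (6.69 to 10.1, with a mean of 6.5 in conventional dendritic-like cells) and Cxcl2 in late neutrophil-like cells. Ccl25, the CCR9 ligand, had 708 UMIs and nearly the same mean level in its first 2 classes, NK-like (0.0813) and pro/pre-B-like cells (0.0808). Cxcl13, the CXCR5 ligand, had 0 UMIs in cells, and Ccl2 was at 0.344 to 2.1 in classical monocyte-like cells.

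Over 74 sums of a class in a library (17 classes) and 10545 genes, the gene most like each receptor was found by Pearson's r of log levels, a description because the sums share libraries. The closest to Cxcr2 was Grina (0.93), followed by the neutrophil gene Retnlg (0.91). For Cx3cr1 it was Hpgd (0.95), for Ccr9 Cd4 (0.95), for Cxcr5 Bank1 and Fcer2a, genes of mature B cells (both 0.92), and for Ccr2 Fam105a (0.90). Cxcr3 was nearest to Cd28, a T cell costimulatory receptor (0.88), Ccr1 to Bmx (0.87) and Ccr7 to BC094916 (0.86). Cxcr4 had the lowest best match, Osbpl9 at 0.70. Between members the closest were Ccr2 with Cx3cr1 (0.79), Cxcr2 with Ccr1 (0.78) and Cxcr5 with Ccr7 (0.70), and Cxcr4 was closest to Ccr1 at 0.54.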

How the data were processed

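Bone marrow cells of 5 mice were profiled with 10x Genomics 3' libraries, 1 per day, which the authors processed with Cell Ranger against mm10 per the labels and methods and deposited as unfiltered matrices of UMI counts per gene and barcode. Barcodes with at least 500 UMIs and at most 10% mitochondrial UMIs were kept. The members and gene lists were chosen with earlier results of these data known, and were left out of the 1142 variable genes used for clustering (Leiden, scanpy 1.11.5, leidenalg 0.10.2, resolution 2, 30 components). Clusters were named from at least 3 markers of a class. The highest 5% of doublet scores were left out only as an alternative, because Scrublet called 158 doublets at day 0 and 0 to 3 at the other days, where it did not work. The libraries shared 44 to 73 barcodes per pair, against 43.6 to 68.9 expected by chance.

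Counts were summed per class and library (at least 10 cells) and classes compared in edgeR 4.0.16 (R 4.3.3) by the quasi-likelihood test with the mouse as a block, since both classes come from the same mouse, with Benjamini-Hochberg adjustment over all genes tested. The code was tested on simulated data. For members below the count filter no test was made. Named genes are the 9 members in every comparison, up to 4 genes with the largest change in each list of other receptors, ligands and signaling genes, and 3 most similar genes per member. Alternatives were other normalization, count filters, DESeq2 1.42.0, no block, other cell filters and classes, thinned cells and each library left out. Shares of cells were given in full and after thinning to 1000 UMIs, with Clopper-Pearson intervals computed. One further receptor gene is not reported here.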

Additional observations from a re-analysis of the deposited data

Results flagged for a closer look

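Of 52 sets of 4 or 5 library values of a receptor in a class with at least 100 UMIs, 0 held a library set apart from the others by Dixon's criterion, where chance gives about 2.6 at 5% each.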

How the results depend on the processing

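Of 34 results for a receptor in a comparison of classes, 26 passed the test, 19 of these kept their sign and call under every alternative run, and 1 changed sign, Ccr9 in neutrophil-like against monocyte-like cells (-0.22 with plain library totals). Without the mouse as a replicate block, 2 of these calls were lost, Ccr2 in late against immature neutrophil-like cells (0.39, adjusted p = 0.171) and Ccr9 in neutrophil-like against monocyte-like cells (0.83, adjusted p = 0.0735). No paired analysis was possible between days because each day has 1 mouse. The number of members called fell to 2 in nonclassical against classical monocyte-like cells, 2 in B-like against pro/pre-B-like and 1 in T-like against NK-like cells after thinning, and to 2 in B-like against pro/pre-B-like cells with no mitochondrial limit. It rose to 5 in T-like against NK-like cells with no filter on low counts. No share of all genes called was set beside these counts in these settings, so they are not read as results about the receptors.

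Signs also changed among results that had not passed the test. In neutrophil-like against monocyte-like cells, Cxcr3 was -1.04 with plain library totals and -0.01 (without day 0) to 0.35 with 1 library left out, and Ccr7 was 0.24 with the highest doublet scores left out, 0.12 with classes set cell by cell and -0.27 to 0.17 (without day 3) with 1 library left out. In B-like against pro/pre-B-like cells, Cxcr4 was -0.05 with plain totals, -0.06 with a mitochondrial limit of 3 median absolute deviations and -0.39 after thinning, and Ccr2 was -0.07 (without day 9) to 0.73 with 1 library left out. In T-like against NK-like cells, Cxcr2 was -0.09 with plain totals and -0.06 (without day 0) to 0.18 with 1 library left out, and Cxcr4 was 1.13 with the limit of 3 deviations and 1.24 at a lower clustering resolution. Cxcr4 was 0.07 in plasmacytoid against conventional dendritic-like cells with no mitochondrial limit. The causes were not tested.

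Levels in the highest class moved by more than the spread among mice in 16 cases. At a lower clustering resolution the mean was 1.92 for Cxcr4, 3.58 for Cxcr2, 2.58 for Ccr1 and 4.08 for Ccr9. With classes set cell by cell it was 2.58 for Cxcr4, 3.56 for Ccr1, 6.37 for Ccr2 and 3.35 for Ccr9. The limit of 3 deviations gave 2.36 for Cxcr4 and 2.39 for Ccr9, no mitochondrial limit 4.17 for Ccr9, and 1000 UMIs per cell 5.98 for Ccr9. Thinning gave 2.26 for Cxcr4 and 6.51 for Ccr2, and leaving out the highest doublet scores 0.666 for Cxcr3 and 4.03 for Cx3cr1. The highest class changed only for Ccr2 with at least 1000 UMIs per cell, to conventional dendritic-like cells (5.99). After thinning, the members past 2-fold between days, of those assessed above, were 2 in precursor-like, 1 in immature, 2 in classical monocyte-like, 3 in B-like (Cxcr4, Cxcr5 and Ccr7), 1 in pro/pre-B-like and 4 in T-like cells. Several of these ratios rest on few UMIs, such as 5.64 for Cxcr2 in T-like cells (26 UMIs) and 4.56 for Ccr2 in precursor-like cells (32 UMIs). The shares of all genes past 2-fold were taken before thinning only, so these counts are not read as more change between days. The lower resolution gave no nonclassical or conventional dendritic-like class to compare. Depth limits Cxcr5 and Cxcr3 most, with 287 and 709 UMIs over all cells.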

Other observations

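Basophil/mast-like cells, which were in no comparison, had 10 to 25 cells in 3 libraries. Their Cxcr4 level was 1.61 at day 3, 1.69 at day 6 and 1.37 at day 9, and their Ccr1 level was 0.888, 0.313 and 0.429, with a mean of 0.543 against a free RNA bound of 0.142. Granulocyte-monocyte progenitor-like (GMP-like) cells had Cxcr4 at 0.521, 0.869, 0.8, 0.738 and 0.66 from day 0 to day 12.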
